A study of Mus musculus with 6 samples.

Results

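The WNT signalling genes examined here were 56 mouse genes: 19 WNT ligands, 4 R-spondins, 10 frizzled receptors, the co-receptors Lrp5, Lrp6, Ror1 and Ror2, the R-spondin receptors Lgr4, Lgr5 and Lgr6, 10 secreted inhibitors, the membrane ubiquitin ligases Rnf43 and Znrf3, and 4 target or transcription factor genes. They were chosen by gene symbol, and all 56 matched among 20678 genes measured. RNA came from livers of wild-type C57Bl6 embryos at E12.5 (embryonic day), with 20 ng of total RNA amplified per sample, and was hybridised to Affymetrix Mouse Genome 430 2.0 arrays, which read each gene with 1 or more groups of short probes called probe sets. The 6 groups were liver cells, cells carrying the adhesion molecule ALCAM (ALCAM+), and 4 fractions of ALCAM+ cells sorted by podoplanin (PDPN+ and PDPN-) or by integrin alpha 8 (ITGA8+ and ITGA8-). Every group was 1 array from wild-type cells, so there was no replicate and no test, and each difference below is a difference between 2 arrays. The sources used here do not say how many embryos gave each sample.

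WNT proteins are secreted lipid-modified ligands that bind frizzled receptors. With the co-receptors LRP5 or LRP6 they stabilise beta-catenin, which acts with TCF and LEF factors on targets such as Axin2, and with ROR1 or ROR2 they can signal without beta-catenin. RNF43 and ZNRF3 remove frizzleds from the cell surface, and R-spondins bound to LGR receptors block these ligases and so raise the response. In the liver, WNT signals are known for hepatoblast growth in the embryo and for the zonation of hepatocytes in the adult, and mesenchymal and endothelial cells are known sources of WNT and R-spondin ligands.

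The 4 fraction arrays and the pair of liver and ALCAM+ arrays were on different scales, with median intensities of 123 to 200 and of 42 and 66, so differences were taken within each set. Only genes whose higher array exceeded a floor were compared, and the floor is the median intensity of all probe sets of the set, 168 for the fractions and 52 for liver and ALCAM+. Differences are on the log2(intensity + 16) scale, which understates those of low genes, and are counted from 2-fold. The sort genes followed the labels: Pdpn intensity was 7746 in PDPN+ and 117 in PDPN- cells, Itga8 intensity was 4354 in ITGA8+ and 871 in ITGA8- cells, and that of Alcam was 13425 after the ALCAM sort and 3207 in liver cells. In the other sort, Pdpn was high in both fractions, at 4658 in ITGA8+ and 6176 in ITGA8- cells. Itga8 intensity was 737 in PDPN+ and 2215 in PDPN- cells. Of 10 hepatoblast markers 9 or all 10 were above the floor in every fraction, with Alb intensity at 18532 to 25926.

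The PDPN- array stood apart from the other fractions in markers of other cell types. The 10 mesothelial markers summed to an intensity of 55176 (PDPN+), 1421 (PDPN-), 15974 (ITGA8+) and 41945 (ITGA8-). Summed intensity of 8 macrophage markers was 26910, 459, 2427 and 1031 in the same order, and that of 10 megakaryocyte markers was 32464, 329, 38717 and 16533. Markers of macrophages, megakaryocytes and neutrophils were all below the floor in PDPN- cells, though none was at 0. For 10 endothelial markers the sums were 4878, 541, 7134 and 7125, and for 10 stellate cell markers 20928, 26533, 38109 and 19347.

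**Figure D1:**
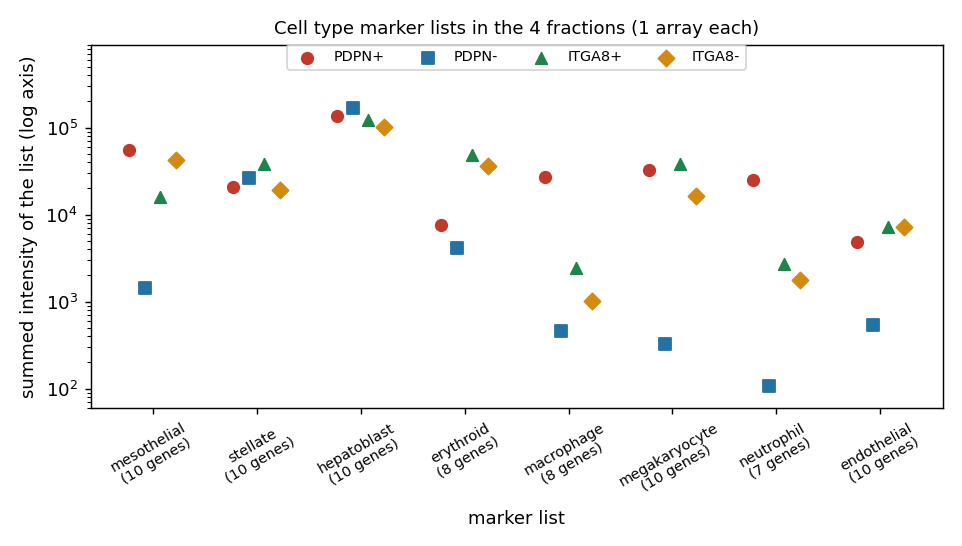
Summed intensity, on a log axis, of 8 marker lists in the 4 fraction arrays, 1 point per array. The PDPN- points lie lowest for the mesothelial, erythroid, macrophage, megakaryocyte, neutrophil and endothelial lists, with mesothelial markers at 1421 against 15974 to 55176 elsewhere.

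Of the 56 members 36 exceeded the floor in at least 1 fraction, 18 did so in all 4 fractions, and 20 were below the floor in all 6 arrays. Most WNT ligands were among the latter. Wnt1, Wnt2, Wnt2b, Wnt3, Wnt3a, Wnt6, Wnt7a, Wnt7b, Wnt8a, Wnt9b, Wnt10a, Wnt10b and Wnt16, 13 of 19 ligands, did not exceed the floor anywhere, and neither did Rspo4, Fzd9, Fzd10, Sfrp4, Dkk2, Wif1 and Notum. These 20 genes had intensities of 1 to 130. Array intensity depends on each probe's binding, so a low value does not show absence and levels were compared only within a gene.

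**Figure D2:**
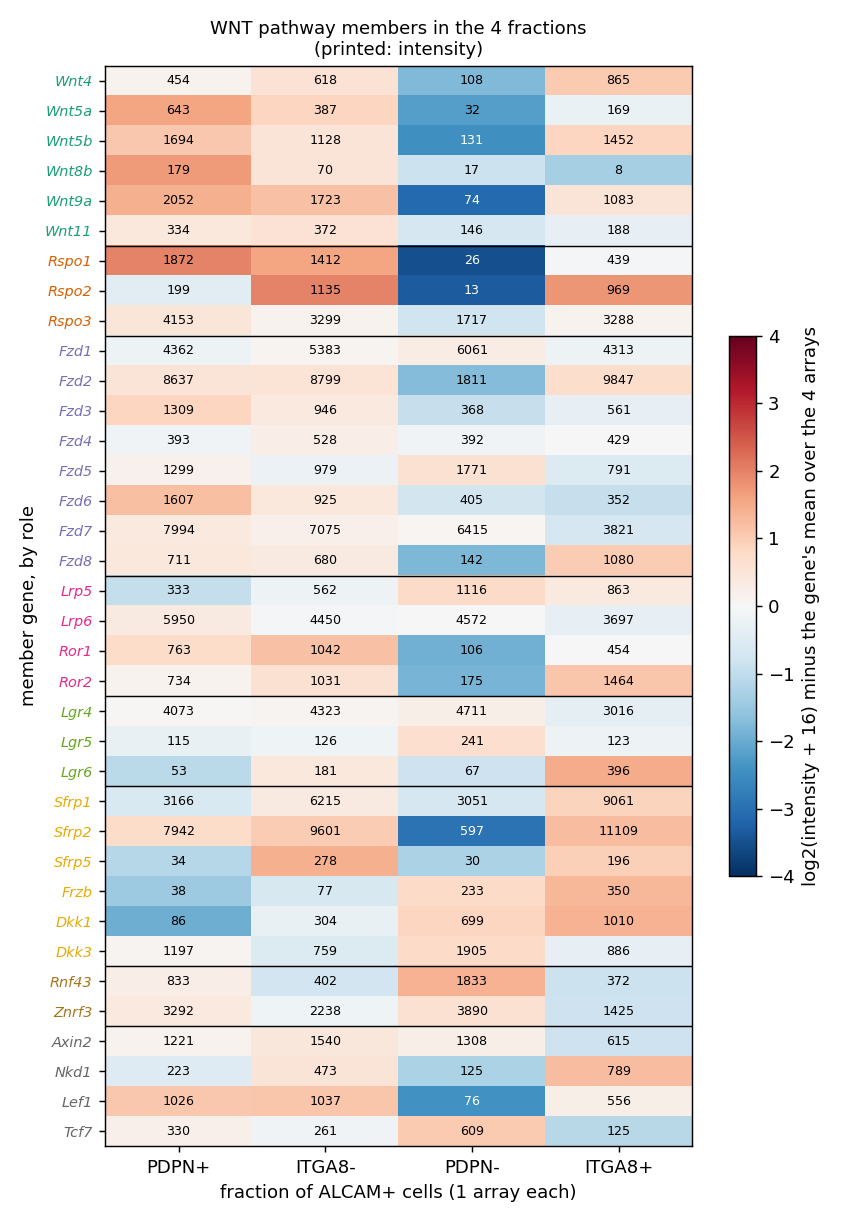
The 36 members above the floor in at least 1 fraction, by role. Colour gives log2(intensity + 16) minus the gene's mean over the 4 arrays and the printed numbers are intensities. Wnt5b, Wnt9a, Rspo1, Sfrp2 and Lef1 are lowest in the PDPN- column, while Dkk1 and Frzb are highest in ITGA8+ and next in PDPN-.

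The PDPN sort shows how podoplanin divided WNT genes among ALCAM+ cells. Ligands and R-spondins above the floor, 4 of 8 frizzleds and both ROR receptors were higher in PDPN+ cells, and the inhibitors Dkk1 and Frzb, the co-receptor Lrp5 and the ligase Rnf43 were higher in PDPN- cells. Of 34 members that exceeded the floor 17 were 2-fold higher in PDPN+ cells, and 18.6% of all genes above the floor were. In the other direction 4 members passed 2-fold, against 7.59% of all genes. The median difference was 0.94 over these members and 0.03 over all genes. A member that passed the floor through its high array alone had to differ. In 13 of the 21 members past 2-fold the lower array was below the floor. Their direction was thus fixed by the floor, and their sizes depend on the added 16. They were the WNT ligands in this comparison, Rspo1, Rspo2, Fzd8, Ror1 and Lef1, and on the other side Dkk1 and Frzb.

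The 6 WNT ligands in this comparison were all below the floor in PDPN- cells and entered it through PDPN+ cells, so their direction was fixed by the floor and only their sizes are given. Intensity of Wnt9a was 2052 (PDPN+), 74 (PDPN-), 1083 (ITGA8+) and 1723 (ITGA8-), a difference of 4.52 between the PDPN fractions. Wnt5a, the main ligand of the ROR receptors, had intensities of 643, 32, 169 and 387 in the same order and a PDPN difference of 3.78. Its relative Wnt5b was at 1694, 131, 1452 and 1128, a PDPN difference of 3.54. For these 3 genes the PDPN- array was the lowest of the 4. Wnt4, a ligand needed in kidney and gonad development, was at 454, 108, 865 and 618, a PDPN difference of 1.92. Wnt11, which acts in cell movement, was at 334, 146, 188 and 372, a difference of 1.11 that became 0.63 with quantile normalisation. Wnt8b intensity was 179 in PDPN+ cells, just above the floor, and 17, 8 and 70 in the other fractions, and its other probe sets were below the floor.

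The R-spondins differed from each other across the sorts. Rspo1 intensity was 1872 (PDPN+), 26 (PDPN-), 439 (ITGA8+) and 1412 (ITGA8-), and its PDPN difference of 5.49 was the largest among the 34 members. Rspo2 was at 199, 13, 969 and 1135, so the 2 ITGA8 fractions held more than either PDPN fraction, and its PDPN difference was 2.89. Rspo3 was well above the floor in every fraction, at 4153, 1717, 3288 and 3299, with a PDPN difference of 1.27. The PDPN- array was the lowest for all 3 genes, while the highest array was PDPN+ for Rspo1 and Rspo3 and ITGA8- for Rspo2.

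Among 8 frizzleds above the floor 4 were 2-fold higher in PDPN+ cells and none was lower. Fzd2 intensity was 8637 (PDPN+), 1811 (PDPN-), 9847 (ITGA8+) and 8799 (ITGA8-), with a PDPN difference of 2.24. Fzd8 was at 711, 142, 1080 and 680, a PDPN difference of 2.20. Both were low in PDPN- cells alone. Fzd6, known from planar polarity in skin and hair, was at 1607, 405, 352 and 925, a PDPN difference of 1.95, and was low in both PDPN- and ITGA8+ cells. Fzd3, an axon guidance receptor, was at 1309, 368, 561 and 946, a PDPN difference of 1.79, but its 3 other probe sets above the floor differed by -0.23 to 0.74. Fzd1, Fzd4, Fzd5 and Fzd7 stayed within 2-fold, between -0.47 and 0.32. Fzd7 was at 7994, 6415, 3821 and 7075, Fzd1 at 4362, 6061, 4313 and 5383, and all 4 receptors were above the floor in every fraction.

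Of the co-receptors, both ROR genes were 2-fold higher in PDPN+ cells and 1 of 2 LRP genes was lower. Ror1 intensity was 763 (PDPN+), 106 (PDPN-), 454 (ITGA8+) and 1042 (ITGA8-), a PDPN difference of 2.67, and Ror2 was at 734, 175, 1464 and 1031, a difference of 1.97. Lrp5 went the other way, at 333, 1116, 863 and 562, a PDPN difference of -1.70, so it was highest in PDPN- and ITGA8+ cells. Lrp6 was at 5950, 4572, 3697 and 4450 and its PDPN difference was 0.38.

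R-spondin receptors and their ligase targets were not higher in PDPN+ cells. Lgr4 intensity was 4073 (PDPN+), 4711 (PDPN-), 3016 (ITGA8+) and 4323 (ITGA8-), a PDPN difference of -0.21. Lgr5, a marker of stem cells in the gut, exceeded the floor in PDPN- cells only, at 241 against 115, 123 and 126, a PDPN difference of -0.97, and its other probe set differed by -1.83. Rnf43 was at 833, 1833, 372 and 402, a PDPN difference of -1.12, and Znrf3 at 3292, 3890, 1425 and 2238, a difference of -0.24. Both ligase genes were higher in the 2 PDPN fractions than in the 2 ITGA8 fractions. Of 10 hepatoblast markers 2, the transcription factors Foxa1 and Foxa2, were also 2-fold higher in PDPN- cells. Foxa1 intensity was 1404, 3714, 518 and 724 and Foxa2 intensity 283, 948, 196 and 151 in the same order, while the 10 markers together summed to 136598, 170198, 123913 and 103092. Their part in these values was not tested.

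Secreted inhibitors were divided. Sfrp2, which binds WNT proteins, had intensities of 7942 (PDPN+), 597 (PDPN-), 11109 (ITGA8+) and 9601 (ITGA8-), a PDPN difference of 3.70. Dkk1, which blocks LRP5 and LRP6, was at 86, 699, 1010 and 304, a PDPN difference of -2.81. Frzb, which belongs to the secreted frizzled-related proteins like Sfrp2, was at 38, 233, 350 and 77, a difference of -2.21. Sfrp2 was thus low in PDPN- cells alone, while Dkk1 and Frzb were lowest in PDPN+ and next lowest in ITGA8- cells. Sfrp1, of the same family, was at 3166, 3051, 9061 and 6215, with a PDPN difference of 0.05. Dkk3, a divergent Dickkopf protein, was at 1197, 1905, 886 and 759, a difference of -0.66.

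Genes that report beta-catenin activity did not share a direction in the PDPN sort. Axin2, a feedback inhibitor, had intensities of 1221 (PDPN+), 1308 (PDPN-), 615 (ITGA8+) and 1540 (ITGA8-), a PDPN difference of -0.10. Lef1 was at 1026, 76, 556 and 1037, a difference of 3.50. Tcf7 was at 330, 609, 125 and 261, a difference of -0.85, and Nkd1, a feedback inhibitor that binds Dishevelled, was at 223, 125, 789 and 473, a difference of 0.76. Lef1, like the ligands, was below the floor in PDPN- cells, so its direction was fixed by the floor. The other 3 genes stayed within 2-fold.

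Markers of other cell types moved with the PDPN comparison. All 10 mesothelial markers were 2-fold higher in PDPN+ cells, as were 8 of 8 macrophage, 9 of 10 megakaryocyte, 6 of 7 neutrophil and 5 of 10 endothelial markers, and their part in the WNT gene differences was not tested. In these sorted bulk samples fewer cells of a type and less RNA per cell cannot be told apart. With the PDPN- array left out and ITGA8+ in its place, an alternative chosen after seeing the data, 9 members were higher in PDPN+ cells, against 14.5% of all genes, and 8 lower, against 14.8%. The members shared with the PDPN sort were Rspo1, Wnt5a, Wnt8b, Fzd3 and Fzd6 above and Dkk1, Frzb and Lrp5 below. Rspo2, at -2.20, and Rnf43, at 1.13, passed 2-fold in the direction opposite to the PDPN sort. With the mean of all probe sets of a gene 10 members were higher and 4 lower, and Fzd3 at 0.69 and Fzd6 at 0.89 were inside 2-fold. Wnt5a, Lef1, Rspo2, Ror1, Wnt8b and Frzb were then below the floor in both PDPN fractions. Of the genes past 2-fold 71.1% were higher in PDPN+ cells, and 58.9% with quantile normalisation.

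The ITGA8 sort shows which WNT genes went with integrin alpha 8, named in the series title as a mark of a hepatic stellate cell population. Dkk1, Frzb and Lgr6 were higher in ITGA8+ cells, and Rspo1, Fzd6, Axin2, Ror1 and Wnt5a were lower. Of 34 members above the floor 3 were 2-fold higher, against 5.2% of all genes, and 5 were 2-fold lower, against 6.03% of all genes. The median difference was -0.28 over these members and 0.00 over all genes. These counts are small, and with the mean of all probe sets they became 1 and 3.

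Both inhibitors were higher in ITGA8+ cells, Frzb by 1.98 and Dkk1 by 1.68. Dkk1's other probe set, at 390 in ITGA8+ and 129 in ITGA8- cells, differed by 1.49. In the PDPN sort that probe set was below the floor, at 41 in PDPN+ and 62 in PDPN- cells, and differed by only -0.45. Lgr6, an R-spondin receptor, had intensities of 53 (PDPN+), 67 (PDPN-), 396 (ITGA8+) and 181 (ITGA8-), an ITGA8 difference of 1.06. It was above the floor in the 2 ITGA8 fractions only, and its difference was inside 2-fold with a pseudocount of 64, at 0.91, and with the mean of its probe sets, at 0.78. Sfrp1, at 0.54, and Sfrp2, at 0.21, stayed within 2-fold.

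On the other side, the ITGA8 difference was -1.65 for Rspo1, -1.35 for Fzd6, -1.30 for Axin2, -1.17 for Ror1 and -1.12 for Wnt5a. A second Wnt5a probe set above the floor differed by -0.31, and the Wnt5a difference fell within 2-fold with a pseudocount of 64, with quantile normalisation and with the mean of its probe sets. Tcf7 at -0.97, Wnt11 at -0.93, Fzd7 at -0.89 and Lef1 at -0.88 lay just inside 2-fold on the same side. Nkd1 was at 0.72, so the 4 target and transcription factor genes did not share a direction. Rspo3 at 0.00, Rspo2 at -0.22, Wnt5b at 0.36 and Wnt4 at 0.47 differed little, and the other Wnt4 probe set had the opposite sign, at -0.76.

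Mesothelial markers moved with this comparison, with 8 of 10 lower in ITGA8+ cells, and 6 of 10 stellate cell markers and 8 of 10 megakaryocyte markers were higher. Of 4 macrophage markers above the floor 3 were higher, with sums over the list of 2427 against 1031. Their part in the WNT gene differences was not tested. Of all genes past 2-fold 46.3% were higher in ITGA8+ cells, and 61.2% with quantile normalisation.

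Read across both sorts, 6 members passed 2-fold in opposite directions of the PDPN and ITGA8 splits, which share no array. Rspo1, Wnt5a, Fzd6 and Ror1 were higher in PDPN+ and in ITGA8- cells, 4 of 32 members above the floor in both sorts against 2.43% of all genes. Dkk1 and Frzb were higher in PDPN- and in ITGA8+ cells, 2 of 32 against 0.742% of all genes. The first set holds a ligand, an R-spondin and 2 receptors, and the second holds 2 secreted inhibitors. The PDPN+ and ITGA8- arrays, in which the first set was higher, are also the 2 fractions with the highest mesothelial sums, 55176 and 41945. The PDPN- and ITGA8+ arrays, in which Dkk1 and Frzb were higher, are the 2 with the highest stellate cell sums, 26533 and 38109. Reln alone made up 14543 of the PDPN- sum. Of 10 stellate cell markers 2 were 2-fold higher in PDPN- cells and 1, Hand2, was 2-fold higher in PDPN+ cells. The part of the mesothelial and stellate cell lists was not tested. Rspo1, Wnt5a and Ror1 were below the floor in PDPN- cells, and Dkk1 and Frzb in PDPN+ cells. Their direction in the PDPN sort was thus fixed by the floor. Frzb was also below it in ITGA8- cells, and only Fzd6 was above it in every fraction. These counts rest on few genes, and with the mean of all probe sets each set held 1 member.

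**Figure D3:**
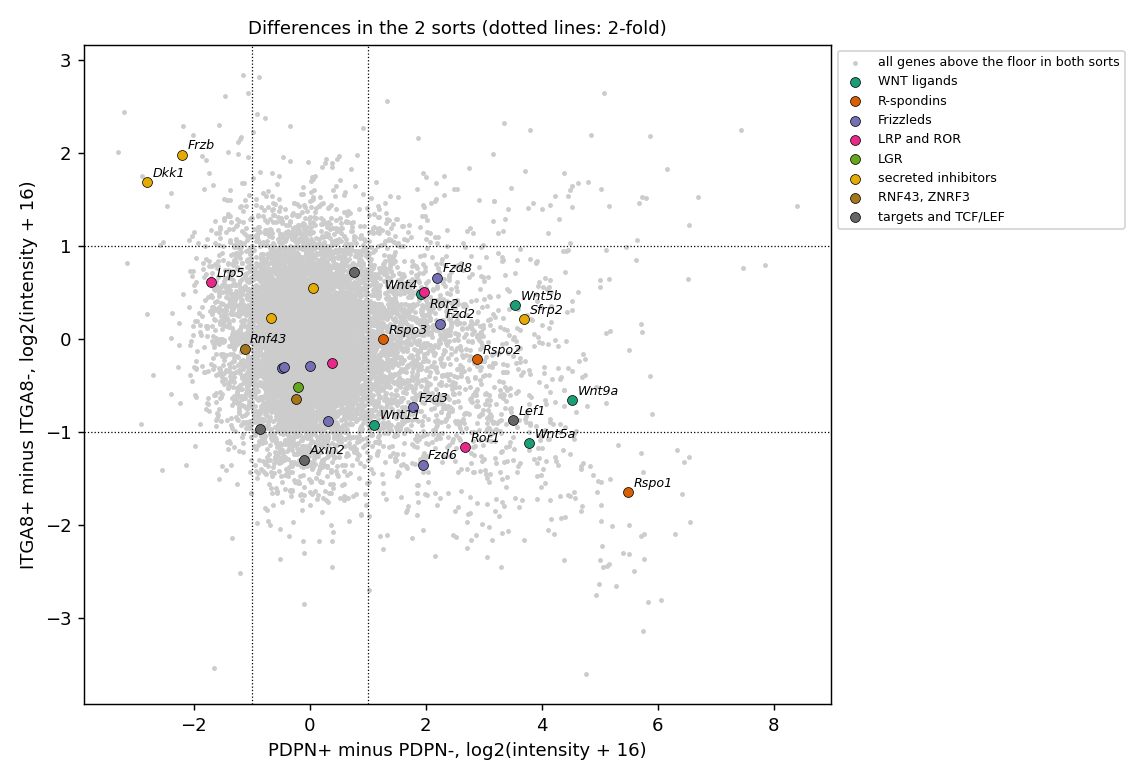
Difference between the ITGA8 fractions against that between the PDPN fractions, in log2(intensity + 16), for members coloured by role and for all genes above the floor in both sorts in grey. Dkk1 and Frzb lie at the upper left, and Rspo1, Wnt5a, Fzd6 and Ror1 at the lower right outside both 2-fold lines.

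The sequence before the start of these 6 genes is shown because they were past 2-fold in both sorts. The RefSeq promoter table of build GRCm38.p6 matched Dkk1, Frzb, Ror1 and Rspo1, and the 250 bases upstream of the start are printed 5′ to 3′ on the gene's strand. Capitals mark matches, on either strand, to the TCF/LEF letters CTTTGAA or CTTTGAT or CTTTGTA or CTTTGTT, to TATAAA, to the TEAD letters GGAATG and to the GATA letters AGATAA. Dkk1 lies on the minus strand at chr19:30549497-30549746, Frzb on the minus strand at chr2:80447397-80447646, Ror1 on the plus strand at chr4:100095541-100095790 and Rspo1 on the plus strand at chr4:124986180-124986429.
Dkk1: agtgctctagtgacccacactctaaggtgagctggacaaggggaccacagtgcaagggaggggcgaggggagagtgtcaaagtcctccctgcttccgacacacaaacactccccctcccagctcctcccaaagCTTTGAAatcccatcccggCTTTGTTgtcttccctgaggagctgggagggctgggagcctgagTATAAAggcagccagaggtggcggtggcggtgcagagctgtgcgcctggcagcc
Frzb: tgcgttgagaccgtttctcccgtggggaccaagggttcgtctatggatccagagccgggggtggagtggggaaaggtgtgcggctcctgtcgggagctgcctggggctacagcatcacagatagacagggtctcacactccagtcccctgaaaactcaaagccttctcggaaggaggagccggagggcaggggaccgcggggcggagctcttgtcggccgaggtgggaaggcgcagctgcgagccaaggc
Ror1: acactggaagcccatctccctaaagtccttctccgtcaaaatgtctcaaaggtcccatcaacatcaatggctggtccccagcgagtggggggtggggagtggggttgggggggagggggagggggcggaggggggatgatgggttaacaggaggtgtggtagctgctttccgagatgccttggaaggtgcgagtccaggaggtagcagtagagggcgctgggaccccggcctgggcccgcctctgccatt
Rspo1: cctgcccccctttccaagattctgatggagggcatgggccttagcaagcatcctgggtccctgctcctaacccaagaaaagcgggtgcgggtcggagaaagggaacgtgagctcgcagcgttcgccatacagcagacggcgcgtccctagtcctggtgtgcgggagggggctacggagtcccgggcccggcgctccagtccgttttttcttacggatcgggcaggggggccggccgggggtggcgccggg
The Dkk1 window held 2 TCF/LEF matches and 1 TATAAA, with no overlap between them, and the other 3 windows held none of the motifs. TCF/LEF letters were in 14.8% of 32851 windows of this length in the table, TATAAA in 12.4%, the TEAD letters in 12.6% and the GATA letters in 9.99%. Among the 38 members with a window, 5 held the TCF/LEF letters: Dkk1, Fzd7, Lef1, Wnt11 and Wnt5b. A match is a description of letters and not a binding site.

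A further pattern, chosen after seeing the data, set the 2 sorts against each other rather than positive against negative cells. Rspo2, Lgr6, Sfrp5 and Nkd1 were at least 2-fold higher in both ITGA8 fractions than in both PDPN fractions, 4 of 36 members against 4.58% of all genes. Sfrp5, a secreted WNT inhibitor, had intensities of 34 (PDPN+), 30 (PDPN-), 196 (ITGA8+) and 278 (ITGA8-). Lgr6 and Sfrp5 were below the floor in both PDPN fractions and entered through the ITGA8 fractions, so their direction was fixed by the floor. Rnf43 alone was higher in both PDPN fractions, against 3.13% of all genes. Sfrp1, at 6215 and 9061 against 3051 and 3166, was close to the 2-fold line. Erythroid markers moved with this pattern, with summed intensities of 49141 and 36023 in the ITGA8 fractions against 7560 and 4088 in the PDPN fractions, and their part was not tested. The sort and the 2 arrays that represent it cannot be told apart.

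**Figure D4:**
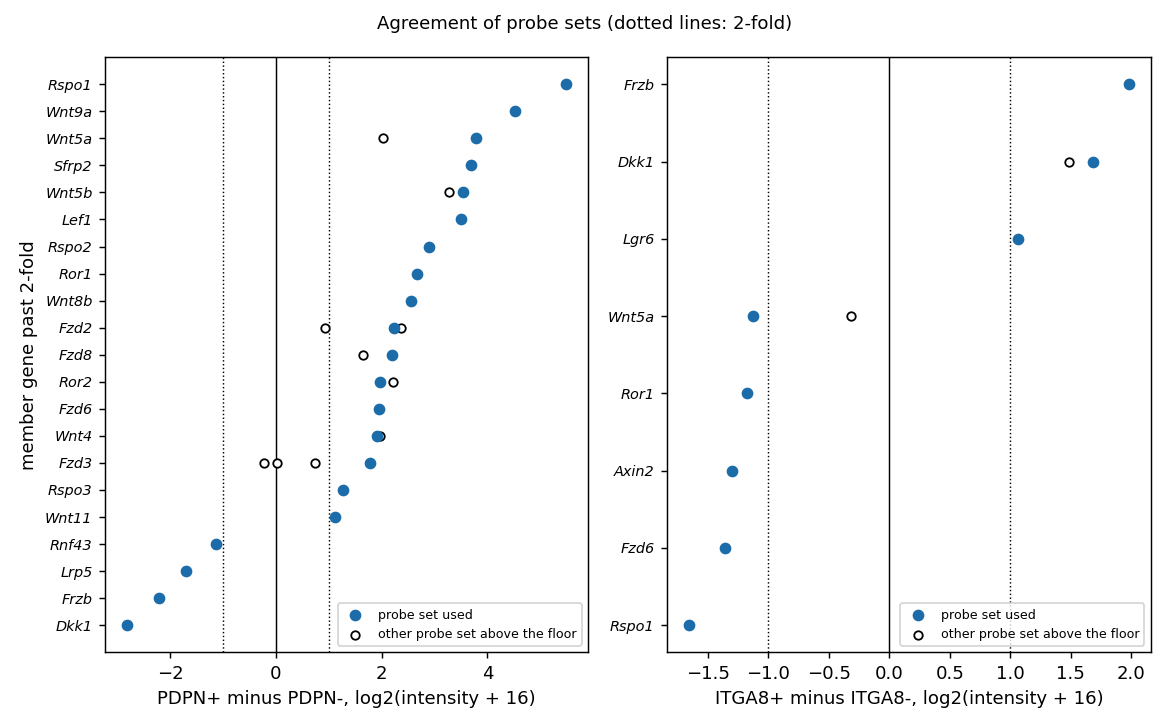
Differences of every probe set above the floor for members past 2-fold in the PDPN sort (left) and the ITGA8 sort (right), in log2(intensity + 16). Filled points are the probe sets used and open points the others. Wnt5b and Wnt4 have close pairs in the PDPN sort and Dkk1 has one in the ITGA8 sort. The other probe sets of Fzd3 lie between -0.23 and 0.74 in the PDPN sort.

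Agreement between probe sets of a gene was the only measure of error within an array. Another probe set was above the floor for 7 of the 21 members past 2-fold in the PDPN sort. In 6 of these 7 all other probe sets had the same direction and in 5 all passed 2-fold; the exceptions were Fzd3 and, for the fold alone, 1 of 2 probe sets of Fzd2, at 0.93. In the ITGA8 sort Dkk1 and Wnt5a were the members past 2-fold with such a probe set. For ALCAM+ against liver cells 9 of the 21 members past 2-fold had one. In 8 of these all other probe sets had the same direction, the exception being Fzd3. In only 2, Sfrp1 and Wnt5a, did all of them pass 2-fold.

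The first sort, for ALCAM, was set against unsorted liver cells. Of members above the floor, 3 of 5 ligands, 2 of 3 R-spondins, 5 of 8 frizzleds and 3 of 4 secreted inhibitors were 2-fold higher in ALCAM+ cells, and Lgr5 and Fzd5 were lower. The median difference of all genes was 0.86 as deposited, and the values here are relative to that shift. On that footing 19 of the 33 members that exceeded the floor were higher by 2-fold, against 14.4% of all genes, and 2 were 2-fold lower, against 11.9%. The median over these members was 1.09. In 12 of the 21 members past 2-fold the liver array did not exceed the floor. They entered through ALCAM+ cells alone, so the direction of their deposited values was fixed by the floor. Their sizes depend on the added 16. They were Wnt5a, Wnt5b, Wnt9a, Rspo1, Fzd3, Fzd4, Fzd8, Ror1, Ror2, Dkk3, Axin2 and Nkd1.

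Wnt9a intensity was 11 in liver and 457 in ALCAM+ cells, a difference of 3.27, and Wnt5b intensity was 18 and 515, a difference of 3.11. Rspo1 was at 7 and 300, a difference of 2.92, Rspo3 at 62 and 760, a difference of 2.46, and Wnt5a at 13 and 164, a difference of 1.78. Except for Rspo3, these ligands were below the floor in liver cells, so the sizes depend on the added 16. Among inhibitors Sfrp2 was at 277 and 3509, a difference of 2.73, and Sfrp1 at 248 and 2656, a difference of 2.48 that all 4 other Sfrp1 probe sets above the floor passed at 2-fold. Dkk3, at 41 and 203, differed by 1.08. Dkk1 and Frzb, which marked PDPN- and ITGA8+ cells above, were below the floor in both arrays, at 46 each in ALCAM+ cells.

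Of the receptors, Fzd2 intensity was 197 in liver and 2379 in ALCAM+ cells, a difference of 2.63, and Fzd8 intensity was 16 and 236, a difference of 2.12. Fzd4 differed by 1.70, Fzd3 by 1.55, Ror1 by 1.31, Lgr4 by 1.14 and Fzd7 by 1.11, and Ror2 was just past 2-fold. Axin2 was at 32 and 321, a difference of 1.95, Nkd1 at 14 and 169, a difference of 1.77, and Lef1 at 87 and 382, a difference of 1.09. Fzd5 was at 695 and 379, a difference of -1.71, and Lgr5 at 113 and 59, a difference of -1.64. As deposited these last 2 differences were -0.85 and -0.78, and no member was 2-fold lower. Fzd5 was nevertheless above the floor in all 4 fractions, at 791 to 1771.

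**Figure D5:**
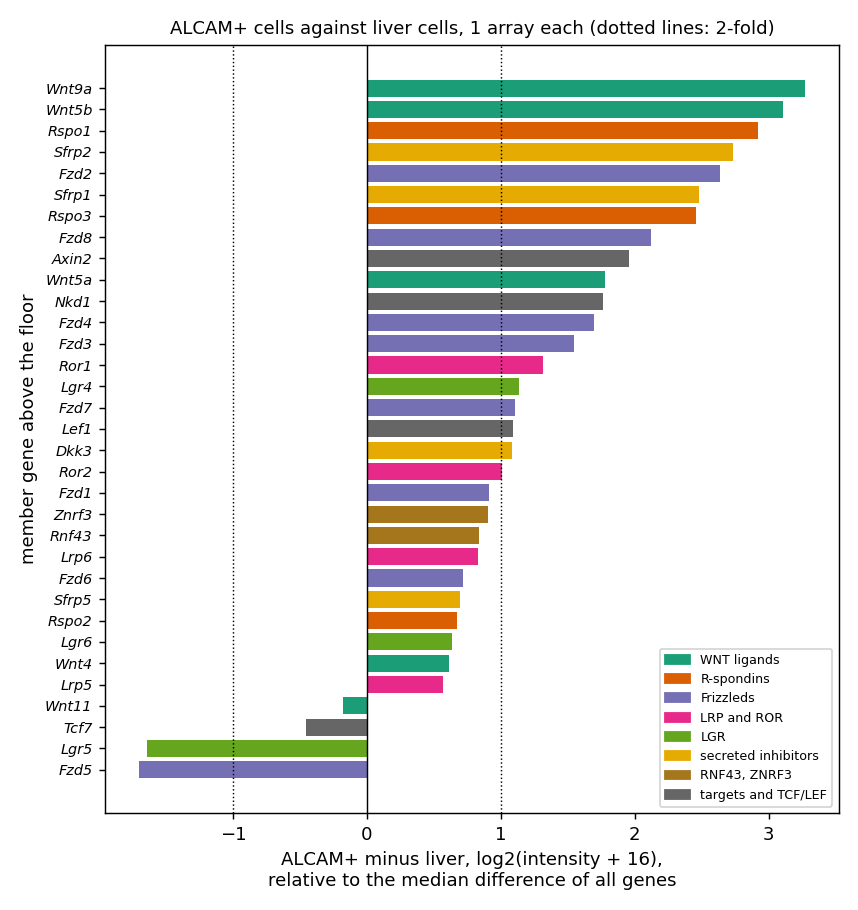
Difference between the ALCAM+ and liver arrays for the 33 members above the floor, in log2(intensity + 16) relative to the median of all genes, with bars coloured by role. Wnt9a is the highest at 3.27, and Fzd5 and Lgr5 alone lie below the lower 2-fold line.

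Without the shift 29 members were 2-fold higher, against 43.4% of all genes, and 93.0% of all genes past 2-fold were higher against 54.8% with it. With a pseudocount of 64 there were 12 members higher, and Wnt5a, Fzd3, Ror1, Ror2, Dkk3, Lef1 and Nkd1 were inside 2-fold, at 0.67 to 0.99. With the mean of all probe sets 10 members were higher, and Wnt5a, Fzd3, Fzd4, Fzd7, Ror2, Lgr4, Axin2, Lef1 and Nkd1 were inside 2-fold, at 0.16 to 0.85. Ror1 and Lgr5 were then below the floor. Mesothelial markers were higher in ALCAM+ cells in 8 of 10, with summed intensities of 12463 against 524, and erythroid markers were lower in 8 of 8, at 13320 against 34256. Megakaryocyte markers were higher in 7 of 10, at 27962 against 7559, stellate cell markers in 6 of 10, at 5245 against 1019, and macrophage markers in 3 of 8, at 8269 against 2292. Neutrophil markers were lower in 5 of 7, at 2914 against 6703. Their part in the WNT gene differences was not tested.

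Among 58 other measured genes of the pathway, those for intracellular transducers stayed within 2-fold in both sorts, while many planar polarity genes differed between the PDPN fractions. In the PDPN sort 17 of 48 above the floor were 2-fold higher in PDPN+ cells, against the 18.6% of all genes given above. None was lower, against 7.59% of all genes, and the median was 0.43. Planar polarity genes made up 8 of these 17, led by Celsr1, an adhesion receptor of that pathway, with intensities of 1620 (PDPN+), 61 (PDPN-), 522 (ITGA8+) and 1025 (ITGA8-) and a PDPN difference of 4.41. The next largest were Cd44, an adhesion receptor and WNT target, at 3.45, Wls, the carrier that brings WNT proteins to the cell surface, at 3.0, and the planar polarity gene Prickle1 at 2.83. Of the 17, Celsr1, Cthrc1, Prickle2, Cd44, Dact3, Sostdc1 and Trabd2b were below the floor in PDPN- cells and entered through PDPN+ cells alone. Their direction was thus fixed by the floor, and their sizes depend on the pseudocount. The first 3 of these are planar polarity genes. The rest of the 17, among them Wls and Prickle1, were above the floor in both PDPN fractions. None of 11 transducer genes above the floor passed 2-fold in either sort, and Ctnnb1, which encodes beta-catenin, was at -0.01 and 0.20.

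In the ITGA8 sort 1 of 48 above the floor was 2-fold higher, against 5.2% of all genes: Daam2, a formin of the WNT pathway, at 1.13, with intensities of 6117 in ITGA8+ and 2777 in ITGA8- cells. Lower were 3 of the 48, close to the 6.03% of all genes. They were the receptor gene Tnfrsf19 at -2.18, Myc at -1.37 and Wls at -1.29. Wls intensity was 2343 (PDPN+), 278 (PDPN-), 783 (ITGA8+) and 1944 (ITGA8-), and its 2 other probe sets above the floor had the same direction in both sorts. Wls was thus high in the 2 fractions in which Rspo1 and Wnt5a were high. In ALCAM+ against liver cells 14 of 50 were 2-fold higher, against 14.4% of all genes, and 1, Myc at -1.32, was lower, against 11.9%. The 4 largest were Ccn4 (Wisp1) at 2.58, Celsr1 at 2.24, Trabd2b, a membrane protease that inactivates WNT proteins, at 2.18 and Wls at 1.97. Celsr1, Trabd2b and Wls, and of the other genes Apcdd1, Cthrc1, Prickle2 and Dvl2, were below the floor in liver cells. The direction of their deposited values was thus fixed by the floor, and their sizes depend on the pseudocount.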

How the data were processed

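RNA of 6 samples was measured on 6 Affymetrix Mouse Genome 430 2.0 arrays, 1 per group. The authors deposited array intensity in whole numbers that are not log-transformed. RMA and Partek are named, without versions, in the submitters' processing notes; a genome build is not given in the sources used here. Fractions and the pair of liver and ALCAM+ arrays were on different scales, with means after trimming 2% at each end of 996 to 997 and of 196 and 331. The design written earlier allowed for log2 values, and since the values are linear, log2(intensity + 16) was computed here with python 3.11.15, numpy 2.4.6 and pandas 2.3.3.

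Of 45101 probe sets 38011 named 1 gene. Where a gene had several, the one with the largest average over the 4 fractions stood for it. Current symbols came from RefSeq's gene table (GRCm38.p6) for 92.1% of them. No tests were run because each group has 1 array, and the number of arrays limits precision. The difference step was tested on simulated data. Members past 2-fold are named with values, as are the other members above the floor where they bear on a role. Of the other pathway genes, at most 4 per direction and comparison are named. The members and gene lists were chosen with earlier results of these data known. Alternatives were another pseudocount, other floors, the mean of all probe sets, quantile normalisation, 4-fold and, for ALCAM+ against liver, no shift.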

Additional observations from a re-analysis of the deposited data

How the results depend on the processing

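No paired analysis was possible because every group has 1 array. Of 256 recomputed member differences past 2-fold, 228 stayed past it, 28 moved inside it and none changed sign. This tally leaves out the alternative with ITGA8+ in place of PDPN-. There Rspo2, at -2.20, and Rnf43, at 1.13, passed 2-fold in the direction opposite to the PDPN sort. The mean of all probe sets moved 13 of 39 inside, a pseudocount of 64 moved 10 of 50, quantile normalisation moved 2 of 50, leaving out the shift moved 2 of 21, and a doubled floor moved 1 of 46. Removing the floor moved 0 of 50. A changed floor alters which genes enter but not their PDPN or ITGA8 differences, so in these 2 settings those differences could not move. The 39 and the 46 fall short of 50 because the other differences were below the floor under that setting. With the mean these included the PDPN differences of Wnt5a, Lef1, Rspo2, Ror1, Wnt8b and Frzb. Counts that moved by more than 1.5 times follow, and the cause was not tested beyond what each alternative itself changes. With 4-fold, PDPN+ minus PDPN- had 11 members higher and 2 lower, ITGA8+ minus ITGA8- 0 and 0, ALCAM+ minus liver 8 and 0, the sets moving in both sorts 0 and 0, and the sets set apart by sort 2 in the ITGA8 fractions and 0 in the PDPN fractions. With the mean of all probe sets, 10 were higher in PDPN+ cells, 1 higher and 3 lower in ITGA8+ cells, 10 higher and 1 lower in ALCAM+ cells, and each set moving in both sorts had 1. With no floor, 7 were lower in PDPN+ cells, and 5 were higher and 8 lower in ITGA8+ cells. With no floor the sets moving in both sorts held 6 and 3 members. A floor at double the median left 1 member, Dkk1, higher in both PDPN- and ITGA8+ cells. A pseudocount of 64 left 12 higher in ALCAM+ cells, 2 higher in both ITGA8 fractions and 0 higher in both PDPN fractions. As deposited, 29 were higher and 0 lower in ALCAM+ cells. With PDPN- left out and ITGA8+ in its place, 9 were higher and 8 lower in PDPN+ cells. Signal near background limits the genes below the floor, for which no difference is given.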

Other observations

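Of 4 Nkd1 probe sets 3 were higher in both ITGA8 fractions than in both PDPN fractions. The one used had intensities of 223 (PDPN+), 125 (PDPN-), 789 (ITGA8+) and 473 (ITGA8-), and another above the floor was at 103, 112, 386 and 436. The other two were below the floor in every fraction, at 18, 22, 135 and 120 and at 144, 21, 101 and 145. The other Lgr5 probe set was at 69, 287, 55 and 48, with a larger gap between PDPN- and the other fractions than the one used.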
